A study of Rattus norvegicus with 9 samples.

Results

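Hepatocytes, the main cells of the liver, are the place where most dietary amino acids are broken down, and the 9 genes described here code for enzymes of that work. They are Gls2 (liver glutaminase), Hal (histidine ammonia-lyase), Sds (serine dehydratase), Tat (tyrosine aminotransferase), Tdo2 (tryptophan 2,3-dioxygenase), Hpd (4-hydroxyphenylpyruvate dioxygenase), Hgd (homogentisate 1,2-dioxygenase), Fah (fumarylacetoacetate hydrolase) and Prodh2 (hydroxyproline dehydrogenase). The genes were chosen by symbol, as enzymes of amino acid breakdown, with earlier results of these data known. All 9 were found among the 16730 genes that the deposited tables share. Their reads were read out in rat livers with and without fibrosis and with and without tormentic acid (TA), a plant triterpenoid.

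The normal control group, the model group and the TA group held 3 male Sprague-Dawley rats each, 9 livers in all. The model and TA rats were given CCl4, a liver toxin that leads to fibrosis, into the stomach at 2 ml/kg as a 50% oil solution, 2 times a week for 9 weeks, and the normal rats received saline. The TA rats were then treated for 6 weeks, and all rats were fasted for 12 h before the liver was taken. No dose stands in the labels of the TA livers, and 3.0 mg/kg for all 3 was read from the design text of the study. The labels call the livers of the model and TA groups livers of the hepatitis stage. The groups differ in agent and not in genotype, no label names an inbred line or a transgene, and each library came from whole liver, in which hepatocytes are mixed with stellate, bile duct, blood vessel and immune cells.

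Amino acid breakdown starts by removing nitrogen, as ammonia or by transfer to a keto acid, and sends the carbon skeleton to the citric acid cycle, glucose or ketone bodies. Gls2, Hal and Sds release ammonia directly and are known from hepatocytes near the portal vein, where urea and glucose are made. Tat, Hpd, Hgd and Fah act one after another on tyrosine, and Tdo2 opens the ring of tryptophan. Tat, Tdo2 and Sds are textbook targets of glucocorticoids or of the hormones of fasting, and inherited loss of Fah, Hpd, Hgd or Hal gives tyrosinaemia, alkaptonuria or histidinaemia.

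Promoters of 7 of the 9 enzymes were found in the RefSeq promoter set of assembly GRCr8, with 8 starts because Gls2 has a pair, and none was matched for Hal and Sds. The 250 bases before each start were searched on both strands for exact matches of 5 short motifs of the TATA box, the glucocorticoid receptor, HNF4, HNF1 and C/EBP. The 160 bases before the start are shown for the 3 enzymes that held a match there, with the matched letters in capitals, 5′ to 3′ on the strand of the gene.
Hpd (chr12:39042086-39042245, plus strand): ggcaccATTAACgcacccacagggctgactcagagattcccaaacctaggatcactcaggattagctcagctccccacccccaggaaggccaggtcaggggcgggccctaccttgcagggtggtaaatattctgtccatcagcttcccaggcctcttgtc
Hgd (chr11:76643768-76643927, minus strand): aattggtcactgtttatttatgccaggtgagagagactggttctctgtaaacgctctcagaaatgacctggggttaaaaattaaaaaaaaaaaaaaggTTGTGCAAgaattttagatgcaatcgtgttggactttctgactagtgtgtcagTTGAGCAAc
Prodh2 (chr1:94880927-94881086, plus strand): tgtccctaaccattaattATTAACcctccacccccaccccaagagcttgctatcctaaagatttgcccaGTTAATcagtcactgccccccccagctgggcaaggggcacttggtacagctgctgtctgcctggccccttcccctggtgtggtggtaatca

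The HNF1 letters searched were GTTAAT. They stood once in Hpd, 154 to 149 bases before the start, and 2 times in Prodh2, at 142 to 137 and 91 to 86 bases before the start. They were held by 2 of the 7 enzymes and by 6.45% of all 33469 promoters. The C/EBP letters were TTGCNNAA, which read TTNNGCAA on the other strand. Hgd held them 2 times, at 62 to 55 and at 9 to 2 bases before the start, and 9.22% of all promoters held them. Tdo2 alone held the letters of the core promoter box, TATAAA, 228 to 223 bases before its start and so far from it, against 12.9% of all promoters. For the glucocorticoid receptor the letters were TGTTCT, present in 17.5% of all promoters and in none of these windows. For HNF4 the letters were CAAAGTC, present in 3.95% of all promoters and likewise in none of these windows. The motifs do not overlap one another in the matches found. These are matches of letters and not measured binding sites.

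Between 13156735 and 18090405 reads were counted per liver, and the 9 enzymes together took 0.548% to 0.815% of them in the normal livers, 0.122%, 0.474% and 0.416% in model rats 1, 2 and 3, and 0.584% to 0.660% in the TA livers. Values below are counts scaled to a common library size (CPM) after TMM scaling of all 9 livers. Fold changes are log2 values from edgeR's quasi-likelihood test, with p-values adjusted by Benjamini-Hochberg over all genes tested. The label of the tissue was checked on 12 hepatocyte genes, of which none was at 0 in any liver, and their summed level was 155900 to 192100 CPM in the normal livers, 42080 to 130600 CPM in the model livers and 127800 to 208000 CPM in the TA livers. Model rat 1 stood apart. In that liver 8 stellate cell and myofibroblast genes summed to 12440 CPM, against 1190 and 1459 CPM in the other model livers, 676 to 1160 CPM with TA and 193 to 282 CPM in normal livers. The 6 bile duct genes summed to 1973 CPM there, against 113 and 180 CPM in the other model livers, 33.9 to 51.9 CPM with TA and 17.8 to 30.9 CPM in normal livers. The fold changes of the 9 enzymes that turn on model rat 1 are therefore also given without it below.

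All 9 enzymes had a lower mean in the model group than in healthy livers, at 16.8% (Hal) to 50.4% (Sds) of the normal mean. Hal, which turns histidine into urocanate, fell with an adjusted p under 0.05, and none of the other 8 passed that threshold by edgeR. For 7 of the 9 the groups did not overlap, every model liver being below every normal liver, and this held for 17.3% of the 12730 genes tested. The share called lower at an adjusted p under 0.05 was 1 of 9 for the enzymes and 1.01% for all genes. The rule of the study's methods was a raw p under 0.05 and a fold change of over 1 on the log2 scale, by DESeq2. Its thresholds are applied here and below to the edgeR values, unless another tool is named. By them Hal, Hpd and Prodh2 were called, 3 of 9 against 5.55% of all genes called lower. DESeq2 called 7 of 9 at these thresholds, and the share of all genes by DESeq2 is not given here. Median log2 fold change was -1.45 for the enzymes and 0.02 for all genes. As the enzymes were chosen with earlier results of these data known, the shares and medians set against all genes are a description. In whole liver, fewer hepatocytes and less of an RNA in each hepatocyte cannot be told apart.

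**Figure D1:**
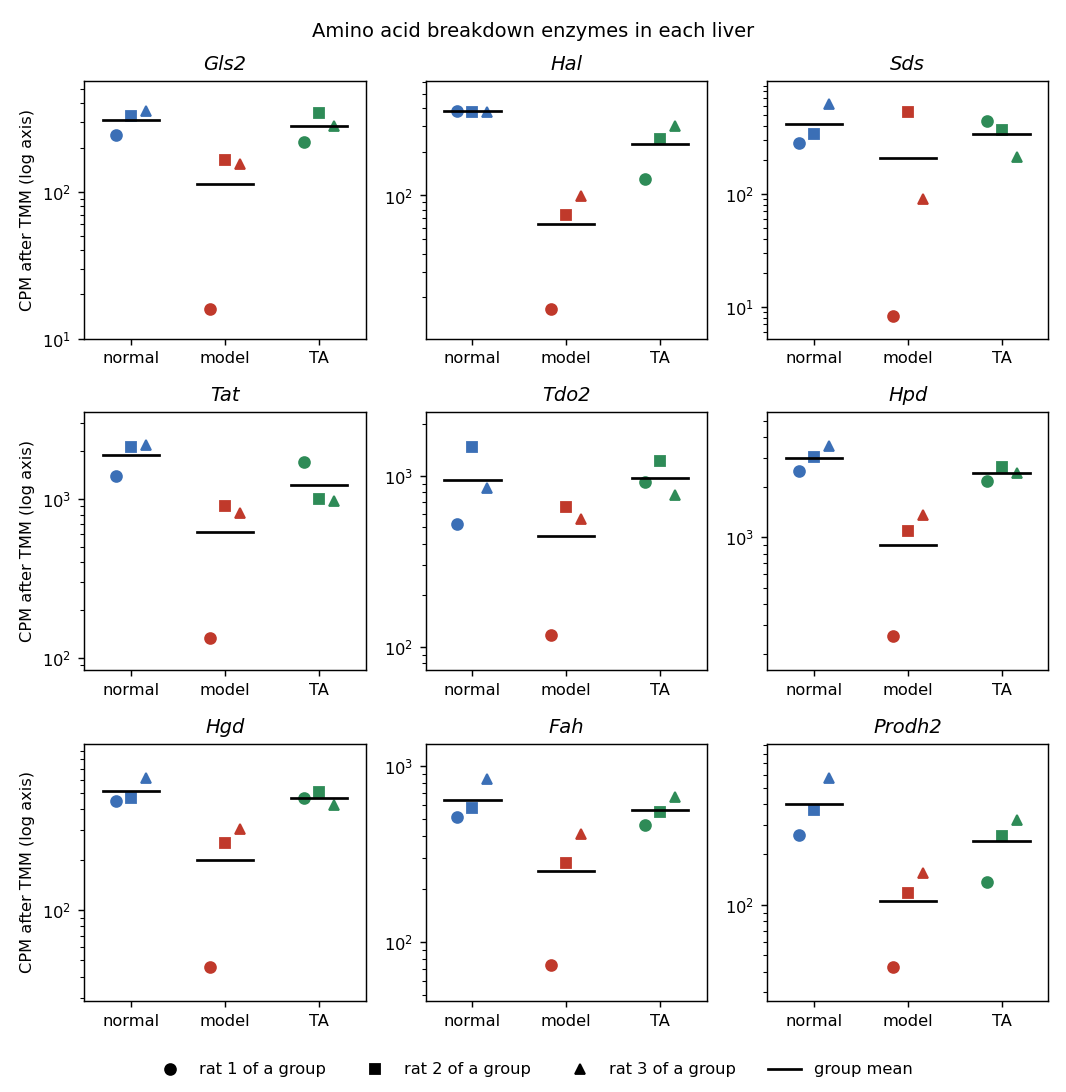
CPM of each of the 9 enzymes in every liver (log axis, one panel a gene), with colours for the normal, model and TA groups, marker shapes for rats 1 to 3 and a bar at the group mean. Model rat 1 was the lowest of the 9 livers for all 9 enzymes, and the TA livers lie above the model livers without overlap for 7 of them.

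Among the enzymes that release ammonia, Hal was the most even in health. Hal stood at 380.5, 376 and 373 CPM in the 3 normal livers, at 16.7, 73.3 and 99.7 CPM in the model livers and at 129.7, 244 and 301 CPM in the TA livers. The coefficient of variation was 1.03% among the normal livers, 67.1% among the model livers and 38.8% among the TA livers, and the 3 groups did not overlap, with the TA livers in between. The mean went from 376 ± 3.87 CPM (SD, n = 3) to 63.2 ± 42.4 CPM (SD, n = 3), and the log2 fold change was -2.56 (SE 0.60, adjusted p = 0.0426) by edgeR. The call was lost with 3 livers against 2, at an adjusted p of 0.114, 0.153 and 0.143 without normal rat 1, 2 or 3 and 0.087 without model rat 2. It held without model rat 1, at a log2 fold change of -2.13 and an adjusted p of 0.00617.

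Gls2, which frees ammonia from glutamine for the urea cycle, was lower in every model liver than in every normal liver. Gls2 stood at 243, 329.9 and 356 CPM in the 3 normal livers, at 16, 165 and 156 CPM in the model livers and at 217, 346 and 283 CPM in the TA livers. Its log2 fold change was -1.45 (SE 0.73, adjusted p = 0.227) by edgeR, so that the difference did not pass the threshold. The range within the model group was wide, 10.3-fold from the lowest to the highest rat, against 1.47-fold among normal rats. Without model rat 1 edgeR gave a log2 fold change of -0.95 (adjusted p = 0.0752).

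Sds, which converts serine to pyruvate and ammonia, was the least even of the 9 among the model livers. Sds stood at 281, 335 and 618 CPM in the 3 normal livers, at 8.38, 523 and 90.2 CPM in the model livers and at 438, 365 and 209 CPM in the TA livers. Model rat 2 lay within the normal range and model rat 1 62.4-fold below rat 2, so that the groups overlapped. The log2 fold change was -0.97 (SE 1.12, adjusted p = 0.59) by edgeR, and the exact permutation test gave p = 0.3 (two-sided). Without model rat 1 edgeR gave a log2 fold change of -0.42 (adjusted p = 0.753), and without model rat 2 -3.06 (adjusted p = 0.122). Over all alternatives it lay between -3.06 and -0.10, the latter by limma voom, and no call was made under any of them.

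The 4 enzymes of tyrosine breakdown were lower in every model liver than in any normal liver. Tat stood at 1393, 2137 and 2206 CPM in the 3 normal livers, at 134, 913 and 819 CPM in the model livers and at 1723, 1010 and 974 CPM in the TA livers. Hpd stood at 2491, 3030 and 3516 CPM in the 3 normal livers, at 256, 1086 and 1366 CPM in the model livers and at 2174, 2643 and 2430 CPM in the TA livers. All model livers were below all normal livers for both. Tat, the first step, had a log2 fold change of -1.61 (SE 0.71, adjusted p = 0.18) by edgeR. Hpd, the second step, had -1.73 (SE 0.68, adjusted p = 0.139) by edgeR, with an unadjusted p of 0.034. Hpd passed the adjusted threshold by DESeq2 (adjusted p = 0.0139) and by limma voom (adjusted p = 0.0227), and Tat by DESeq2 (adjusted p = 0.0464). Hgd stood at 451, 467 and 620.3 CPM in the 3 normal livers, at 45.6, 251 and 305 CPM in the model livers and at 471, 508 and 425 CPM in the TA livers. Fah stood at 511, 574 and 841 CPM in the 3 normal livers, at 73.4, 282 and 408 CPM in the model livers and at 464, 549.5 and 665 CPM in the TA livers. Hgd opens the ring of homogentisate and Fah makes the last cut, to fumarate and acetoacetate, and again the model livers lay below all normal livers. Log2 fold changes were -1.34 (SE 0.63, adjusted p = 0.202) for Hgd and -1.32 (SE 0.60, adjusted p = 0.19) for Fah by edgeR. Over the 9 livers the profiles of Hpd, Hgd and Fah were the nearest of the 36 pairs of enzymes. With each profile centred on its own mean log2 CPM, the root mean square difference was 0.183 for Hpd and Hgd, 0.224 for Hpd and Fah and 0.228 for Hgd and Fah, and 1.25 for the farthest pair, Sds and Prodh2. This order changed when model rat 1 was left out. Over the other 8 livers Hpd and Hgd were still nearest at 0.19, Hgd and Fah were at 0.2 and Hpd and Fah at 0.216, but Gls2 came between them, at 0.205 from Hpd and 0.211 from Hgd, and the farthest pair was Hal and Sds at 1.11, with Sds and Prodh2 at 0.972.

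Tdo2 starts the kynurenine route, by which the liver degrades tryptophan. Tdo2 stood at 523, 1473 and 852 CPM in the 3 normal livers, at 117, 656 and 559.6 CPM in the model livers and at 922, 1220 and 772 CPM in the TA livers. Normal rat 1 lay below model rats 2 and 3, so that the groups overlapped, and the exact permutation test gave p = 0.3 (two-sided). The log2 fold change was -1.08 (SE 0.68, adjusted p = 0.327) by edgeR. Prodh2 starts the breakdown of hydroxyproline, an amino acid that is abundant in collagen. Prodh2 stood at 263, 369 and 575 CPM in the 3 normal livers, at 42.5, 118 and 154 CPM in the model livers and at 138, 259 and 323 CPM in the TA livers. All model livers were below all normal livers. The log2 fold change was -1.93 (SE 0.53, adjusted p = 0.0646) by edgeR, just outside the threshold, with an unadjusted p of 0.00699. Prodh2 passed the adjusted threshold under 6 of the 14 alternatives, DESeq2, limma voom, all 9 livers in 1 fit, the replicate block, and without model rat 1 or model rat 3, with adjusted p between 0.00232 and 0.178 over all 14.

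**Figure D2:**
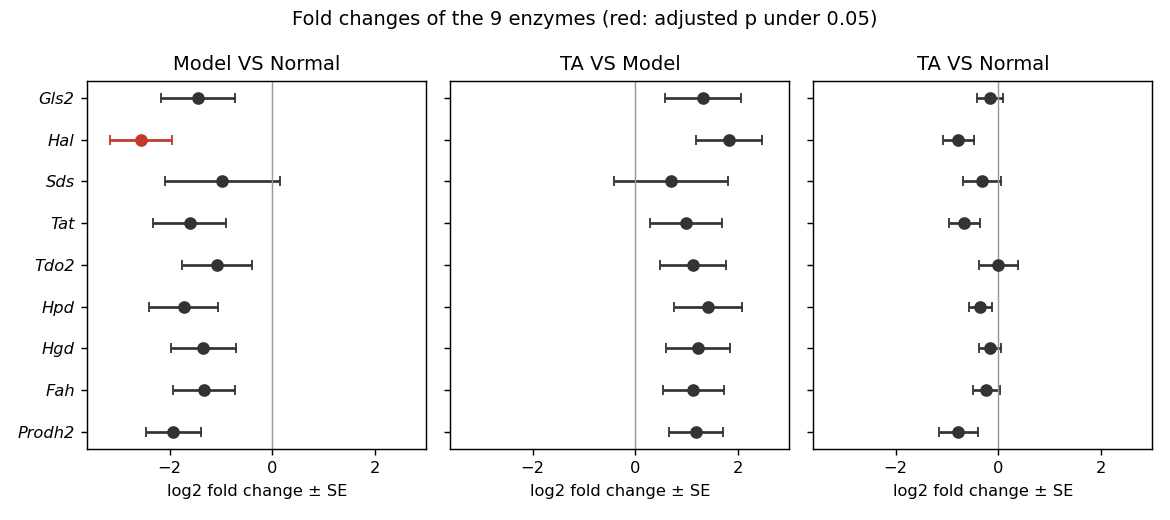
Log2 fold change (point) and standard error (bar) of each enzyme in Model VS Normal, TA VS Model and TA VS Normal by edgeR's quasi-likelihood test. All 9 points are below 0 in the first comparison and above 0 in the second, and Hal in Model VS Normal, in red, is the one value with an adjusted p under 0.05.

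Model rat 1 was the lowest of all 9 livers for each of the 9 enzymes, at 2.04% to 12.3% of the normal mean, with a median of 8.51%. Model rats 2 and 3 were at medians of 47.7% and 45.3% of the normal mean. Without model rat 1, all 9 enzymes were still lower in the model group, and the median log2 fold change was -0.95. By edgeR 7 of 9 had an unadjusted p under 0.05 without it, against 3 of 9 with it. Of all genes, in either direction, 3175 of 12884 had such a p without it, against 3674 of 12730 with it. Without model rat 1 Hal and Prodh2 passed the adjusted threshold, as did 888 of all genes. The log2 fold changes were then -1.15 for Tat, -1.31 for Hpd, -0.89 for Hgd, -0.90 for Fah, -0.66 for Tdo2 and -1.57 for Prodh2. As the stellate cell and bile duct genes given above were highest in this rat, cell types moved with the enzymes, and their part in the differences was not tested.

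TMM assumes that most genes do not change, and 2 other scalings were set beside it. With library totals alone, all genes had a median of 0.65 and that of the enzymes -1.01. With the 12 hepatocyte genes as the scale, chosen after the data had been seen, all genes moved to a median of 1.33 and the enzymes to -0.72, so that relative to other hepatocyte RNA the differences were smaller. On that scale Hal was at -1.72 with an adjusted p of 0.0235 by edgeR, Prodh2 at -1.01, Hpd at -0.88, Tat at -0.82, Gls2 at -0.72, Hgd at -0.54, Fah at -0.49, Sds at -0.32 and Tdo2 at -0.25. The sign of all 9 was the same under every scaling.

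**Figure D3:**
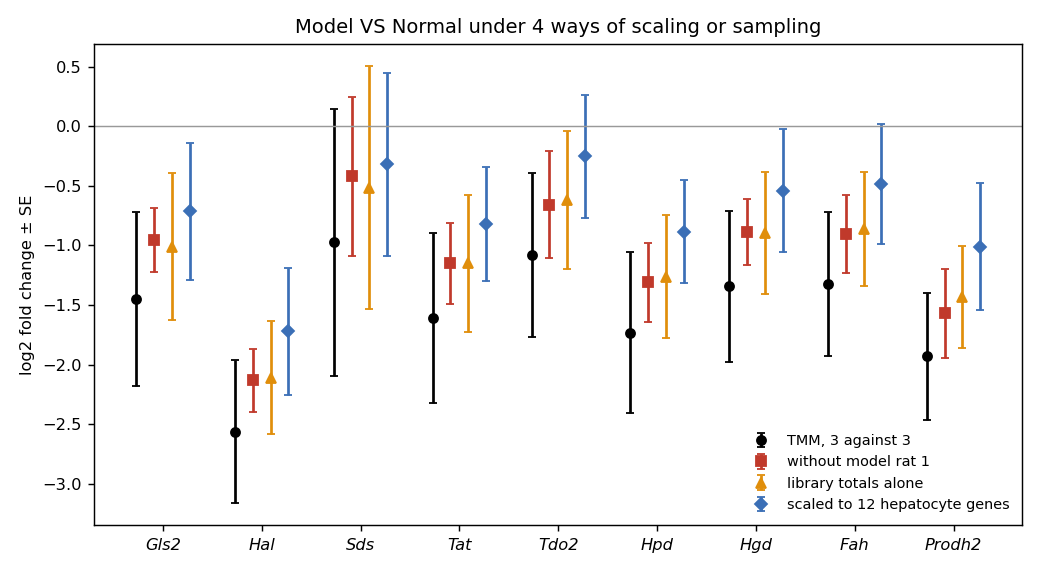
Log2 fold change (point) and standard error (bar) of the 9 enzymes in Model VS Normal with TMM on 3 against 3 livers, without model rat 1, on library totals alone and scaled to 12 hepatocyte genes. All points lie below 0, those scaled to the hepatocyte genes lie nearest to it for every enzyme, and Hal is the lowest in each setting.

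The reads of an enzyme were also divided by the reads of Alb, the albumin gene, in the same liver, which needs no scaling between livers and was likewise chosen after the data had been seen. Alb itself was lower in every model liver than in every normal liver, with a log2 fold change of -0.85 (SE 1.18, adjusted p = 0.661) by edgeR. Hal per Alb was 0.00419, 0.00355 and 0.0050 in the normal livers, 0.000831, 0.00130 and 0.00137 in the model livers and 0.00215, 0.00205 and 0.00426 in the TA livers. The model livers lay below all others, with a mean log2 difference of -1.88 from the normal livers. Model and normal livers also did not overlap for Hpd per Alb, with a mean log2 difference of -1.0, and for Prodh2 per Alb, with -1.02. Prodh2 per Alb was 0.00212, 0.00210 and 0.00211 in the 3 model livers, including model rat 1. The other 6 ratios overlapped between model and normal livers.

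The other genes of amino acid breakdown were taken from 8 lists, and 61 of the 62 that are not among the 9 enzymes could be tested. Of these, 58 had a lower and 3 a higher mean in the model group, the median log2 fold change was -1.01, and 35 were below the normal livers without overlap, against 17.3% of all genes. By edgeR Gpt2 alone fell at an adjusted p under 0.05, while DESeq2 called 14 and limma voom 27 of the 61. By the rule of the study's methods 21 were lower, against 5.55% of all genes, and 0 higher. The median was -0.68 without model rat 1, with 59 of 61 lower, and Amdhd1 took the place of Gpt2 as the 1 gene with an adjusted p under 0.05 by edgeR. Gpt2, a mitochondrial alanine aminotransferase, had a log2 fold change of -1.54 (SE 0.38, adjusted p = 0.0496) by edgeR, and this call was lost under 7 of 14 alternatives, among them without any one normal rat and without model rat 1 or 2, at adjusted p of 0.0538 to 0.175. Scaled to the hepatocyte genes Gpt2 was at -0.49 with an adjusted p of 0.46 by edgeR. The lower direction was thus shared with the enzymes described here, as was the direction of all 12 hepatocyte genes, which had a median of -1.07. Scaled to the hepatocyte genes, 34 of the 61 were lower.

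In histidine breakdown all 4 genes tested, Hal with the 3 that follow it, were lower by the rule of the study's methods and without overlap. Log2 fold changes by edgeR were -1.44 (SE 0.59, adjusted p = 0.153) for Uroc1 (urocanate hydratase), -2.31 (SE 0.77, adjusted p = 0.1) for Amdhd1 (imidazolonepropionase) and -1.91 (SE 0.69, adjusted p = 0.12) for Ftcd, which passes the last carbon to folate. With model rat 1 left out these were -1.02 for Uroc1, -1.81 for Amdhd1 and -1.46 for Ftcd, and Amdhd1 then passed the threshold with an adjusted p of 0.0163 by edgeR, as it did under 3 other alternatives, DESeq2, limma voom and without model rat 3. The medians of the lists were -2.11 for histidine, -1.42 for proline, hydroxyproline and ornithine, -1.34 for phenylalanine and tyrosine, -1.26 for tryptophan and kynurenine, -1.23 for glutamine, glutamate, aspartate and alanine, -1.15 for lysine, -0.97 for serine, threonine and glycine and -0.66 for branched-chain amino acids. These medians include the 9 enzymes and are a description.

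Around tyrosine, the log2 fold changes were -1.35 for Gstz1, which acts between Hgd and Fah, -1.34 for Qdpr and -0.81 for Pcbd1, both of which recycle the cofactor of phenylalanine hydroxylase. In the tryptophan list they were -1.62 for Acmsd, -1.42 for Kmo and -1.39 for Ido2. Acmsd rests on few reads, 79, 231 and 18 in the normal and 9, 73 and 33 in the model livers. Its groups overlapped, and without normal rat 2 it was at -0.72. In the serine, threonine and glycine list the log2 fold changes were -1.42 for Gcat, -1.35 for Agxt and -1.07 for Shmt1, a folate-linked hydroxymethyltransferase. Oat, the ornithine aminotransferase, was at -1.42 and Grhpr, which disposes of glyoxylate from hydroxyproline, at -1.38. Gpt, the classic alanine aminotransferase, was at -2.59 (SE 0.82, adjusted p = 0.0874) by edgeR and Aspg, an asparaginase, at -1.77. Among branched-chain genes Mcee was at -1.27, Ivd at -1.24 and Pccb at -0.98, and among lysine genes Dhtkd1 was at -1.58, Pipox at -1.27 and Gcdh at -1.15. Adjusted p lay between 0.0542 and 0.324 for the genes of this paragraph, and scaled to the hepatocyte genes Pcbd1 and Pccb changed sign, to 0.11 and 0.03. The log2 fold changes of these genes without model rat 1 lay between -0.43 (Pcbd1) and -2.11 (Gpt), with adjusted p from 0.0511 to 0.44 by edgeR. Gpt passed the adjusted threshold under 5 of the 14 alternatives, DESeq2, limma voom, all 9 livers in 1 fit, the replicate block and without model rat 3, and also scaled to the hepatocyte genes, with adjusted p between 0.00446 and 0.211 over all of them. Of the same 14, Mcee passed under 6, Ivd under 4, and Qdpr, Ido2, Gcat and Dhtkd1 under 3 each. Oat, Pccb and Gcdh passed under 2 each, and Gstz1, Kmo, Grhpr and Pipox under 1 each. Pcbd1, Acmsd, Agxt, Shmt1 and Aspg passed under none.

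**Figure D4:**
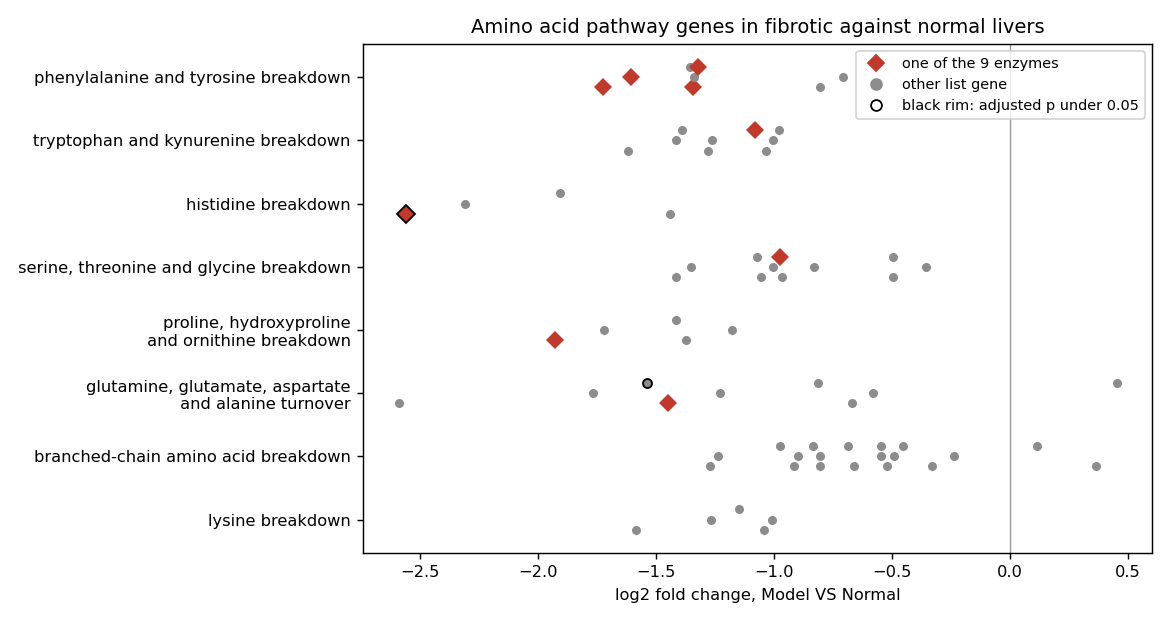
Log2 fold change in Model VS Normal of each tested gene of the 8 amino acid lists (one row a list), with the 9 enzymes as red diamonds and a black rim where the adjusted p was under 0.05. Of 70 genes, 67 lie below 0, and Hal and Gpt2 carry the black rim.

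The list of 11 fasting and glucocorticoid induced liver genes was set beside Tat, Tdo2 and Sds, and 10 of them were in the tables and tested. Of these 8 were lower and 2 higher in the model group, with a median log2 fold change of -0.60, and Cebpb alone was called, by either rule. Cebpb, a transcription factor of the liver, stood at 659, 799 and 611 CPM in the normal livers, 211, 182 and 282 CPM in the model livers and 562, 379 and 504 CPM in the TA livers, without overlap of any groups. Its log2 fold change was -1.60 (SE 0.36, adjusted p = 0.0398) by edgeR, and the call was lost on library totals alone, scaled to the hepatocyte genes (-0.31), under the replicate block and without any one normal rat or model rat 2, at adjusted p up to 0.625. Pck1, which opens glucose synthesis, was at -1.45 (SE 0.82, adjusted p = 0.28) and Ppargc1a, a coactivator of fasting genes, at 0.95 (SE 0.63, adjusted p = 0.344) by edgeR, and neither was called. Pck1 was at -0.97 (adjusted p = 0.143) by edgeR without model rat 1.

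Prodh2 has a counterpart for proline, Prodh1. This proline dehydrogenase had a lower mean in the model livers, as Prodh2 had. It stood at 116, 272 and 301 CPM in the normal livers, 15.1, 58.8 and 134 CPM in the model livers and 119, 262 and 381 CPM in the TA livers, with overlap between normal and model livers. The log2 fold change in Model VS Normal was -1.72 (SE 0.72, adjusted p = 0.164) by edgeR. Reads of Prodh2 per read of Prodh1 were 2.26, 1.36 and 1.91 in normal, 2.82, 2.01 and 1.15 in model and 1.15, 0.989 and 0.848 in TA livers. The log2 ratio differed by 0.05 in Model VS Normal (exact p = 0.9), by -0.92 in TA VS Model (exact p = 0.2) and by -0.87 in TA VS Normal (exact p = 0.1, the smallest possible), where all TA livers were below all normal livers. Over these 3 tests the adjusted values were 0.9, 0.3 and 0.3. With 1 liver left out, chosen after the data had been seen, the difference in Model VS Normal ran from -0.25 without model rat 1 to 0.40 without model rat 3 and so had no stable sign. It ran from -1.27 to -0.62 in TA VS Model, the latter without model rat 1, and from -1.07 to -0.70 in TA VS Normal.

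**Figure D5:**
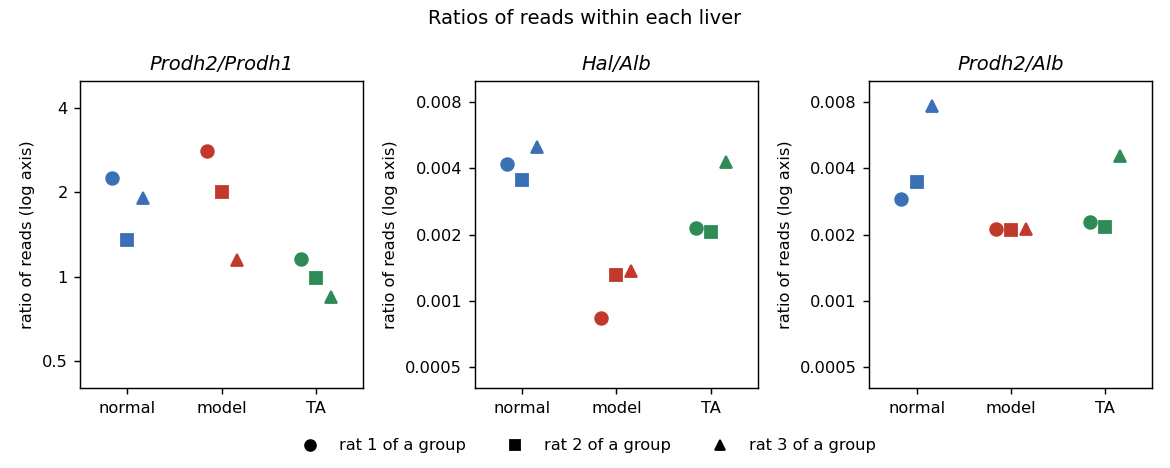
Reads of Prodh2 per read of Prodh1, of Hal per read of Alb and of Prodh2 per read of Alb in each liver (log axes), with colours for the groups and marker shapes for rats 1 to 3. For the first ratio the model and normal livers overlap while the TA livers have the lowest mean, and for the others the model livers lie below all other livers.

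In TA VS Model, which asks whether the treated livers differ from the untreated fibrotic ones, all 9 enzymes had a higher mean with TA and none passed the adjusted threshold, nor did any of the 12781 genes tested (0% called, with 1999 genes at an unadjusted p under 0.05). The other tools called more genes, 541 by DESeq2 and 205 by limma voom, and again none of the 9. Every TA liver was above every model liver for 7 of the 9, against 10.5% of all genes, the exceptions being Sds and Prodh2. By the thresholds of the study's methods on the edgeR values Hal alone was higher, 1 of 9 against 2.11% of all genes. DESeq2 called 5 of 9 at these thresholds, with no share of all genes given here. The median log2 fold change was 1.19 for the enzymes and 0.00 for all genes. Without model rat 1 it was 0.76, and without model rat 3 it was 1.64. TA VS Model and Model VS Normal share the 3 model livers, so that a low model rat enters both.

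Hal had the highest of these log2 fold changes, 1.82 (SE 0.63, adjusted p = 0.269) by edgeR, with an unadjusted p of 0.021. By edgeR, Hpd followed with 1.41 (SE 0.66, adjusted p = 0.342) and Gls2 with 1.32 (SE 0.74, adjusted p = 0.4). The log2 fold changes of the 9 by edgeR without model rat 1 lay between 0.14 for Sds and 1.38 for Hal, with adjusted p from 0.386 to 0.969. In the edgeR fit with all 3 model rats, Hgd was at 1.22 (SE 0.63, adjusted p = 0.375), Prodh2 at 1.19 (SE 0.53, adjusted p = 0.326), Fah at 1.13 (SE 0.59, adjusted p = 0.381) and Tdo2 at 1.12 (SE 0.64, adjusted p = 0.407). For Tat edgeR gave 0.98 (SE 0.71, adjusted p = 0.497), with TA rat 1 at 1723 CPM and the other TA rats close to the highest model rat. For Sds edgeR gave 0.69 (SE 1.11, adjusted p = 0.772), with model rat 2 above all 3 TA rats (exact p = 0.4). For Prodh2, TA rat 1 was below model rat 3, and the exact permutation test gave p = 0.2. Per read of Alb, the TA livers lay above all model livers for Hal (mean log2 difference 1.22), Hpd (0.86) and Prodh2 (0.43), and the other 6 overlapped. Scaled to the hepatocyte genes the median of the enzymes was 0.54, against -1.04 for all genes. The stellate cell genes were lower with TA than in the model livers (8 of 8 by the rule of the study's methods), as were the bile duct genes (6 of 6). Of all genes 1301 of 12781 were called lower. The groups did not overlap for 5 of the 8 stellate cell genes and for all 6 bile duct genes. The stellate cell sum was 12440 CPM in model rat 1, 1190 and 1459 CPM in the other model livers and 676 to 1160 CPM with TA. These genes are not given without model rat 1. The part of these cell types in the differences was not tested.

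Of the other 61 amino acid genes, 58 were higher with TA than in the model livers, with a median log2 fold change of 0.83. In 25 of them the TA livers lay above the model livers without overlap, against 10.5% of all genes. None was called at an adjusted p under 0.05. By the rule of the study's methods 10 were higher, against 2.11% of all genes, and 0 lower. Prodh1 was at 1.87 (SE 0.76, adjusted p = 0.303) by edgeR. Leaving out model rat 1 brought the median of the 61 genes to 0.52 and Prodh1 to 1.40.

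TA VS Normal compares the treated livers with livers that never received CCl4. Here 8 of the 9 enzymes had a negative log2 fold change and Tdo2 one of 0.00, none was called by either rule, and all genes were called lower at 0.0328% by the adjusted p and at 1.02% by the rule of the study's methods. In Hal alone every TA liver was below every normal liver, 1 of 9 against 6.81% of all genes. Its log2 fold change was -0.78 (SE 0.30, adjusted p = 0.445) by edgeR, with an unadjusted p of 0.0304. By edgeR, Prodh2 was at -0.78 (SE 0.38, adjusted p = 0.594) and Tat at -0.66 (SE 0.30, adjusted p = 0.559). The others were Hpd at -0.35, Sds at -0.31, Fah at -0.23, Gls2 at -0.16 and Hgd at -0.16, with adjusted p from 0.749 to 0.938. For Tdo2, Sds, Fah, Gls2 and Hgd the sign changed under at least 1 other setting. The TA mean stood at 59.6% of the normal mean for Prodh2, 59.7% for Hal and 64.6% for Tat, at 80.2% to 91.3% for Hpd, Sds, Fah, Gls2 and Hgd, and at 102% for Tdo2. A p that misses the threshold does not show that the groups are alike. Of the other 61 amino acid genes, 43 were lower and 18 higher, with a median of -0.16, and none was called.

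The levels of the enzymes can be compared with one another per length, in the FPKM values, fragments scaled to gene length and library size, that the authors deposited. In the normal livers Hpd was the most abundant at 1641 ± 261 FPKM (SD, n = 3), followed by Tat at 692 ± 162, Tdo2 at 454 ± 239 and Fah at 389 ± 98.6 FPKM. Hgd at 253 ± 41.4, Sds at 242 ± 102 and Prodh2 at 235 ± 88.8 FPKM came next, then Hal at 148 ± 3.98 and Gls2 at 93.3 ± 17.4 FPKM. Hpd lay above Tat, Fah above Hgd, Prodh2 above Hal and Hal above Gls2 with no overlap among the normal livers, and the other neighbours overlapped. In the model livers all neighbours overlapped, from Hpd at 683 ± 347 FPKM down to Hal, now last, at 34.2 ± 18.5 FPKM. In the TA livers Hpd led again at 1463 ± 70.4 FPKM, and Hal at 97 ± 34.7 and Gls2 at 94.1 ± 17.2 FPKM overlapped at the end.

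The genes whose profile over the 9 livers was most like the mean profile of the enzymes were sought among 7949 genes whose log2 CPM averaged 3 or more. Nearest were Cbs, which joins homocysteine and serine, at a root mean square difference of 0.216, Errfi1 at 0.25, Aldh1l1, a folate enzyme, at 0.261, Acox2, an oxidase of peroxisomes, at 0.27, and Mlxipl, a glucose-responsive transcription factor, at 0.271. Cbs stood at 462 ± 59 CPM in the normal, 188 ± 122.6 CPM in the model and 434 ± 35.3 CPM in the TA livers (SD, n = 3 each). For single enzymes the nearest were Azgp1 for Fah (0.106), Cbs for Hgd (0.156), Khk, the fructose kinase, for Prodh2 (0.163), Etnk2 for Hpd (0.185), Klf15 for Tat (0.239), Sycp3 for Gls2 (0.29), Fam35a for Tdo2 (0.3), Apoc2 for Hal (0.318) and Nnmt for Sds (0.548). The nearest gene was farthest away for Sds. With model rat 1 left out, a choice made after the data had been seen, the genes nearest the mean profile were Tex2 at 0.145, Aldh1l1 at 0.152, Mcee at 0.167, Slc37a4 at 0.174 and Bcl6b at 0.178, so that 1 of the 5 was shared. The nearest gene was the same for 4 single enzymes, Hal, Sds, Tat and Tdo2. The 9 points of a profile share their library and group, and the likeness is a description.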

How the data were processed

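Liver RNA of 9 rats was sequenced after selection of polyadenylated RNA. The authors trimmed the reads with Trimmomatic and Cutadapt, used STAR for mapping and HTSeq-count for counting by gene, and deposited these raw counts without normalization. The versions are not given in the sources used here. The methods name a human build and the labels a mouse build, while the symbols are those of rat, so that the build of the counts is unclear. Of 17156 gene names, 15601 (90.9%) matched rat RefSeq symbols of GRCr8, used for names and promoter sequences alone. The authors also deposited FPKM values, which were used for levels between genes, and a signal per library, the counts divided by DESeq2 size factors, which was checked to be a scaling of the counts. The log2 fold changes and p-values in the authors' tables were not used. How reads shared by near-identical genes were handled is not given in the sources used here.

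Tests started from the counts, in R 4.3.3 with edgeR 4.0.16 (TMM, its filter on low counts, quasi-likelihood test, the livers of the groups compared alone, Benjamini-Hochberg over all genes tested). TA VS Normal used the 16730 genes common to the tables. CPM used 1 set of TMM factors for all 9 livers. A standard error is the log2 fold change over the square root of the F statistic. Single enzymes were also compared by exact permutation of 3 against 3 livers on log2 CPM with a prior count of 2, whose smallest two-sided p is 0.1, and over the 27 such tests the smallest adjusted value was 0.18. Ratios of reads used a pseudocount of 0.5. Nothing in the labels says how the rats were kept or prepared. The p-values of edgeR weigh a difference between groups against the spread between these livers. The scripts were tested on simulated data. The alternatives were DESeq2 1.42.0, limma 3.58.1 (voom with quality weights), the newer form of the edgeR fit, RLE factors, library totals alone, no filter, all 9 livers in 1 fit, the replicate block, leaving out each liver, and, added after the data had been seen, scaling to 12 hepatocyte genes and leaving out each liver for the ratio of Prodh2 to Prodh1.

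The members and lists were chosen with earlier results of these data known. Of 140 list entries 131 were found, Mmut as Mut. Genes named beside the 9 enzymes were up to 3 per amino acid or fasting list with the largest absolute log2 fold change in Model VS Normal, the counterpart Prodh1, and the nearest profiles. An item that the rule also named is not reported here and was left out of the lists. Replicate numbers come from the labels. Deviations from the group means of same-numbered TA and normal rats correlated at 0.256, 0.424 and 0.498. The replicate block, which treats these numbers as pairs, was an alternative fit in every comparison, although no label says what a number shares.

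The lists of periportal and pericentral hepatocyte genes had 9 of 10 and 6 of 7 tested genes lower in Model VS Normal, with medians of -1.33 and -0.74. The periportal list holds Gls2, Hal and Sds themselves, so that its values are in part those of the enzymes. Hal was its only gene with an adjusted p under 0.05 by edgeR. Uroc1 and Oat, of the amino acid lists, also stand in the periportal and the pericentral list. The macrophage and leukocyte genes summed to 512 to 838 CPM in normal, 1327 to 2288 CPM in model and 681 to 1214 CPM in TA livers, and the endothelial genes to 154 to 190, 147 to 317 and 169 to 235 CPM. The 3 pancreas, fat and kidney genes found were too low to be tested and summed to at most 0.522 CPM in any liver.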

Additional observations from a re-analysis of the deposited data

How the results depend on the processing

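In Model VS Normal the log2 fold change of each of the 9 enzymes kept its sign under all alternatives, and in TA VS Model likewise. The cause of the changes below was not tested. The number of enzymes with an adjusted p under 0.05 in Model VS Normal, 1 in the main test, was 4 by DESeq2, 3 by limma voom, 2 with all 9 livers in 1 fit, 2 under the replicate block and 0 to 2 with 1 liver left out. By the rule of the study's methods it was 3, and 7 by DESeq2, 4 by limma voom, 5 with no filter, 6 with all 9 livers, 7 under the block, 1 scaled to the hepatocyte genes and 2 to 5 with 1 liver left out. By this rule 5.55% of all genes were lower in the main test, and the share under the alternatives is not given here. The counts of enzymes under the alternatives thus stand without a background. All genes at an unadjusted p under 0.05, whatever their fold change, also moved. They numbered 3674 in the main test, 4225 by DESeq2, 5200 by limma voom and 4344 with no filter. The number was 4197 with all 9 livers, 3644 under the block and 5919 scaled to the hepatocyte genes. With 1 liver left out it ran from 2727 to 4675. Of the other amino acid genes 1 passed the adjusted threshold, and 14 by DESeq2, 27 by limma voom, 2 by the newer form of the fit, 0 on library totals, 2 with no filter, 6 with all 9 livers, 5 under the block and 0 to 17 with 1 liver left out. Of all genes 1002 passed, and 2654 by DESeq2, 3467 by limma voom, 1980 on library totals, 1757 with all 9 livers, 3435 scaled to the hepatocyte genes and 0 to 2537 with 1 liver left out, the 0 being without normal rat 2 or 3. Of the 1002 in the main test, 129 were lower and 873 higher. Among all genes called by the rule of the study's methods, 25.1% were lower in the main test. That share was 5.58% on library totals and 1.25% scaled to the hepatocyte genes. The sign of Pcbd1 and Pccb turned to 0.109 and 0.0259 when scaled to the hepatocyte genes.

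In TA VS Model 1 enzyme passed the rule of the study's methods, and 5 by DESeq2, 2 by limma voom, 2 by the newer form of the fit, 2 with no filter, 3 with all 9 livers, 5 under the replicate block and 0 to 5 with 1 liver left out. By this rule 2.11% of all genes were higher in the main test, and the share under the alternatives is not given here. All genes at an unadjusted p under 0.05, whatever their fold change, numbered 1999 in the main test, 2492 by DESeq2 and 3508 by limma voom. The number was 2516 with all 9 livers, 2205 under the replicate block and 1092 to 3278 with 1 liver left out. None of the 9 passed the adjusted threshold under any alternative. Of the other amino acid genes 1 passed by DESeq2, and of all genes 541 by DESeq2, 205 by limma voom, 662 scaled to the hepatocyte genes and 0 to 1 with 1 liver left out.

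In TA VS Normal 0 enzymes passed the rule of the study's methods, and 1 by limma voom and 0 to 2 with 1 liver left out. By this rule 1.02% of all genes were lower in the main test, and the share under the alternatives is not given here. All genes at an unadjusted p under 0.05, whatever their fold change, numbered 1148, and 1807 by limma voom and 721 to 1777 with 1 liver left out. Of the other amino acid genes 1 passed the adjusted threshold by DESeq2. Of all genes 32 passed, and 360 by DESeq2, 127 by limma voom, 56 on library totals, 76 with no filter, 14 with all 9 livers, 203 under the replicate block, 130 scaled to the hepatocyte genes and 1 to 61 with 1 liver left out. The sign turned for Tdo2 (-0.00546 by DESeq2, -0.00548 with RLE factors, -0.00753 with no filter, -0.298 to 0.467 with 1 liver left out), Sds (0.146 by limma voom, -0.548 to 0.1 with 1 liver left out), Gls2 (0.0124 on library totals, 0.0977 scaled to the hepatocyte genes), Hgd (0.0284 and 0.122 likewise) and Fah (0.0543 scaled to the hepatocyte genes, -0.38 to 0.0102 with 1 liver left out).

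Beside Prodh2 in Model VS Normal, the replicate block changed no call of an enzyme by the adjusted p. In Model VS Normal and TA VS Model the same-numbered livers correlated at -0.057 to 0.219, and whether they share more than a number was not tested. The fewest reads of an enzyme in a liver were 190, for Sds in model rat 1.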
